A study of Homo sapiens with 9 samples.

Results

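The genes described here are 10 of those that encode subunits of the SWI/SNF chromatin remodelling complex, in its mammalian form also called the BAF complex: SMARCA2, SMARCA4, ARID1A, ARID1B, ARID2, SMARCB1, SMARCC1, SMARCC2, SMARCD1 and SMARCE1. They were chosen by name, for what they encode, from 19970 protein-coding genes on chromosomes 1 to 22 and X. Each was read with 20 kb added on both sides, on GRCh38, and every listed region with at least 1 bp in this window was taken. The windows held 110 of the 85775 regions listed for control cells, 143 of the 122869 listed with the first CHD4 hairpin and 100 of the 83241 listed with the second. No region fell into the windows of several of the genes.

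BAF uses the energy of ATP to slide or evict nucleosomes, which opens promoters and enhancers to transcription factors. It is built around one of a pair of related ATPases and comes in several forms, among them canonical BAF, which carries an ARID1 subunit, and PBAF, which carries ARID2. In Ewing sarcoma the fusion protein EWSR1::FLI1, an ETS-type factor that binds GGAA-containing DNA, is known to bring BAF to its target enhancers. NuRD, which contains the ATPase CHD4, couples remodelling to histone deacetylation and is generally placed opposite BAF at shared sites. The region lists describe the chromatin of the genes that encode BAF, not the binding or the amount of the complex.

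All 9 samples were of the established Ewing sarcoma line SK-N-MC. The cells carried a short hairpin RNA under doxycycline control and received 100 ng/ml doxycycline for 48 h. The controls expressed the non-targeting hairpin shScramble and are labelled wildtype. The knockdown groups expressed shCHD4#1 (hairpin 1 below) or shCHD4#2 (hairpin 2) and are labelled CHD4 knockdown. Each group had 3 biological replicates. ATAC-seq uses a transposase that inserts sequencing adapters into open DNA; for each assay 100000 of these cells were mixed with 100 Drosophila S2 cells, in every group. Only 1 region list per group was analysed here, so a replicate spread is lacking and differences between groups have no test. Whether the hairpin-bearing cells came from 1 clone is not given in the sources used here.

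The hairpin 1 list was 1.43 times as long as the shScramble list and the hairpin 2 list 0.970 times, so a change in region number at a gene is read below against the share of all genes that changed the same way. Depth per sample is unknown. A region's rank below is its place in its list from the smallest authors' p, also given as a percent point of the list. Each list ends in regions that share 1 authors' p and whose order among themselves is not informative: 8.67% of the shScramble list, 6.60% of the hairpin 1 list and 6.17% of the hairpin 2 list. CHD4 itself had 12 regions in its window with shScramble, 14 with hairpin 1 and 12 with hairpin 2, and its start was covered in every list. Such lists cannot tell how strongly CHD4 was silenced. Of 6 Ewing sarcoma marker genes, 5 had a region at the start with shScramble and 6 with each hairpin. NKX2-2 was the one without, and for CCND1, whose strand was not given, either gene end was accepted. Over all protein-coding genes the shares with such a region were 60.0% with shScramble, 68.5% with hairpin 1 and 65.0% with hairpin 2. Markers of other cell types were not free of regions: in shScramble a start or end was covered for 2 of 3 blood, 1 of 2 endothelial, 1 of 2 epithelial, 0 of 2 liver and 1 of 2 muscle genes. With hairpin 1 these numbers were 2, 1, 1, 1 and 2, and with hairpin 2 they were 1, 1, 1, 1 and 2. In bulk cells, an open site in fewer cells and a less open site in each cell cannot be told apart.

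With hairpin 1, 7 of the 10 BAF genes had more regions than with shScramble, 1 had as many and 2 had fewer. Over all protein-coding genes 61.1% had more and 16.8% had fewer, so the share of BAF genes with more regions is near that of genes in general. With hairpin 2, 5 BAF genes had more regions, 1 had as many and 4 had fewer, against 34.9% and 37.6% of all genes. Both hairpins gave more regions at 4 genes (SMARCA2, SMARCA4, SMARCC1 and SMARCC2) and fewer at SMARCE1. The background for these was 30.3% and 13.0%. ARID1B and ARID2 had more with hairpin 1 and fewer with hairpin 2 (16.9% of all genes), and SMARCD1 the converse (1.41%). BAF genes are richer in regions than most genes, with 6 to 27 in shScramble. Among the 7512 genes in that range, 64.4% had more and 23.3% fewer regions with hairpin 1, and 33.7% had more and 52.6% fewer with hairpin 2. In the same range 29.6% had more with both, 19.2% fewer with both, 25.6% more and then fewer in the order of the hairpins, and 1.86% fewer and then more.

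**Figure D1:**
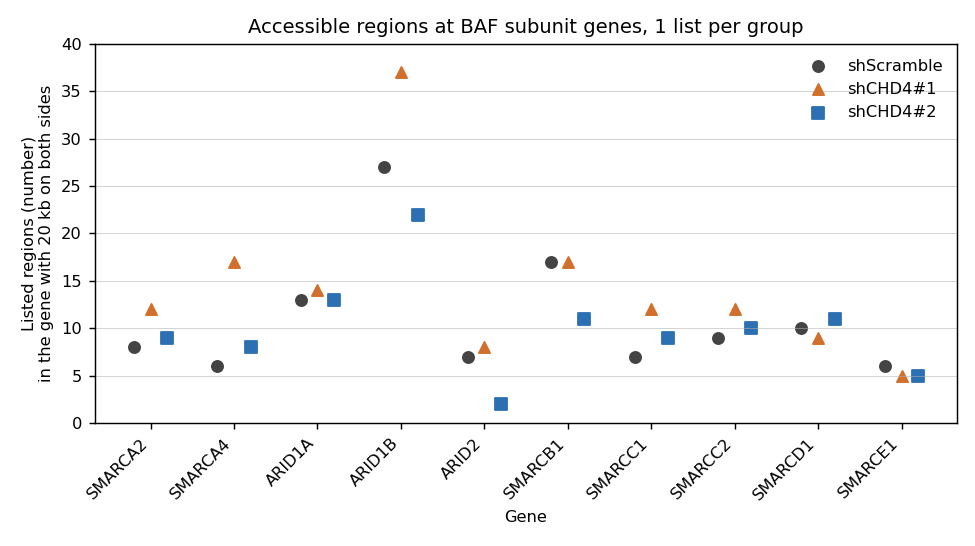
Number of listed regions (y axis) in each BAF gene with 20 kb on both sides (x axis), 1 point per group list: circles shScramble, triangles shCHD4#1, squares shCHD4#2. SMARCA4 stands at 6, 17 and 8, and ARID2 at 7, 8 and 2, in that order.

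Summed over the 10 windows, region number was 1.30 times that of shScramble with hairpin 1 (exact 95% interval 1.01 to 1.68, counting error only) and 0.909 times with hairpin 2 (0.686 to 1.20). Whole lists, which include regions away from genes, gave 1.43 and 0.970, both inside these intervals. Summed over the windows of all protein-coding genes, region numbers were 102820 with shScramble, 139182 with hairpin 1 and 103138 with hairpin 2. Over genes with 6 to 27 shScramble regions they were 68232, 85997 and 64993. In these sums a region can count in several windows. Cut to their best 80000 regions, and so equally long, the lists gave 0.890 with hairpin 1 and 0.930 with hairpin 2. The cut takes most from the hairpin 1 list, which is the longest, and was not made for other genes. A length of 80000 falls within the tied regions of the shScramble and hairpin 2 lists, where the order carries no information. With an authors' p of at most 0.05 the ratios were 1.53 (29 regions against 19) and 1.21 (23 against 19), where the whole lists gave 1.36 and 1.02. The bases covered in the windows were 194 kb in the shScramble list, 260 kb for hairpin 1 and 151 kb for hairpin 2, of 1692 kb. These are 1.34 and 0.781 times the control. Over all chromosomes, without regions that are wider than 20 kb or carry a negative value, the ratios were 1.41 and 0.730.

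The median log2 ratio of region number over the 10 genes, with 1 added to each number, was 0.27 with hairpin 1 and 0.06 with hairpin 2. Over all protein-coding genes these medians were 0.29 and 0. The genes spread from -0.22 (SMARCE1) to 1.36 (SMARCA4) with hairpin 1 and from -1.42 (ARID2) to 0.36 (SMARCA4) with hairpin 2. Both comparisons use the same shScramble list, so a high or low control number moves both ratios of a gene.

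**Figure D2:**
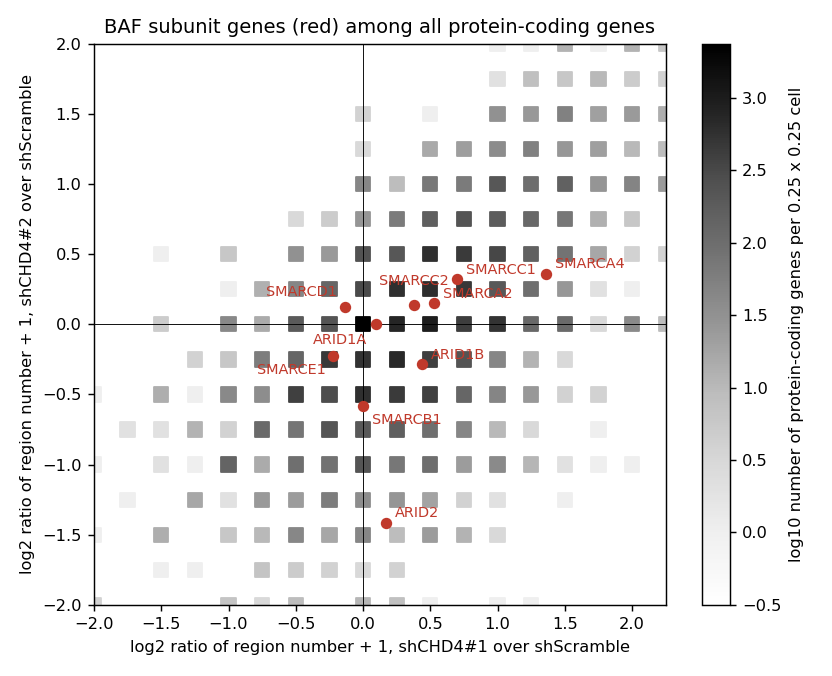
Log2 ratio of region number plus 1 against shScramble, hairpin 1 on the x axis and hairpin 2 on the y axis; red points are the 10 BAF genes, and grey cells give the number of protein-coding genes on a log10 scale (genes beyond the axes are not drawn). SMARCA4 lies at 1.36 and 0.36 and ARID2 at 0.17 and -1.42, while SMARCC1 has the next highest hairpin 1 value, 0.70.

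SMARCA4 encodes BRG1, the ATPase that most BAF complexes in dividing cells use. The gene (chromosome 19, 10961030 to 11062273, plus strand) is shown first because its start was listed with both hairpins and not with shScramble. The 250 bases before its start (GRCh38.p14, RefSeq, chr19:10960780-10961029, plus strand, 5′ to 3′) follow, with each GGAA or its reverse complement TTCC in capitals.
SMARCA4: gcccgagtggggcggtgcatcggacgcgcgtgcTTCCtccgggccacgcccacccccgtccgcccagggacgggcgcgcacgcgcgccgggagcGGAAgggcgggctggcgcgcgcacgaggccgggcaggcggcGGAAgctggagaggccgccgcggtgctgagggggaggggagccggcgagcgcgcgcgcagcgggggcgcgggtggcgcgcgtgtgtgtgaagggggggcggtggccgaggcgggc
This stretch holds 3 such cores and no pair of them in tandem. It is rich in G and C: the 300-base promoter window is 81.3% G or C, the highest of the BAF genes with an entry in the RefSeq promoter table.

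In the shScramble list the region nearest to this start began 2521 bp downstream of it. Hairpin 1 listed a region that ended 150 bp before the start, in chr19:10959211-10960880 when merged. Hairpin 2 listed a part of the same place and 3 more regions, chr19:10961031-10961300, chr19:10961471-10961950 and chr19:10961961-10963050, the first of which begins 1 bp after the annotated start. None ranked high. Within 1 kb of the start the best region was at the 86.4% point for hairpin 1 and the 42.0% point for hairpin 2. Over all protein-coding genes, 7.24% had a region at the start with both hairpins and not with shScramble.

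The 3 lists, in the order shScramble, hairpin 1 and hairpin 2, held 6, 17 and 8 regions in the SMARCA4 window. By number alone, hairpin 1 stands apart in the full lists and hairpin 2 is close to the control. The places themselves differed for hairpin 2 as well. Of 19 merged places, 3 were in all 3 lists, 2 were gained with both hairpins, 3 were listed with hairpin 2 only and 2 were absent with hairpin 2 only. Regions found in all 3 lists were chr19:10941421-10943940, chr19:10946181-10948040 and chr19:11035091-11037260. The first, in the upstream flank, holds the best-ranked distal shScramble region of the window (distal here means at no start or end of any gene), at the 1.01%, 3.57% and 6.61% points of the 3 lists. The last, about 75 kb into the gene, ranked 2266 with shScramble, 2180 with hairpin 1 and 4100 with hairpin 2, so both strong sites of the locus were listed in every group. A second region gained with both hairpins, chr19:11017411-11019260, lay 16170 bp from any shScramble region. chr19:10963551-10965980 and chr19:10971831-10974670 were missing with hairpin 2 only.

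The rest of the excess consisted of 9 regions listed with hairpin 1 only. They were chr19:10976691-10977730, chr19:11014591-11017270, chr19:11052071-11052990, chr19:11053471-11058180 and chr19:11058181-11059730 inside the gene, and chr19:11063771-11064690, chr19:11064701-11066360, chr19:11066531-11068020 and chr19:11072351-11076020 downstream of it. Their ranks ran from 54908 to 118018 of 122869. With lists of 80000 regions the window held 6, 8 and 8 regions, and with an authors' p of at most 0.05 it held 2 in each list. The bases covered were 10.5 kb with shScramble, 30.2 kb with hairpin 1 and 7.37 kb with hairpin 2, so hairpin 2 listed more regions than the control and fewer bases.

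SMARCA2 encodes BRM, the alternative ATPase, which replaces BRG1 in the complex and is not used together with it. The gene (chromosome 9, 2015347 to 2193620, plus strand) had 8, 12 and 9 regions in the same order of lists. Its outermost start was inside a region in every list (chr9:2012951-2017710 when merged). The shScramble and hairpin 2 regions there were wide, 4660 bp and 3510 bp, and lay in the tied block at the end of their lists. Hairpin 1 listed 3 narrower regions in this stretch, of which the one over the start was 1850 bp wide and lay at the 8.36% point.

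A pair of annotated inner starts of SMARCA2, at 2157662 and 2158464, lie in chr9:2156531-2159800. It was listed in every group, at best at the 60.8% point with shScramble, 23.4% with hairpin 1 and 20.4% with hairpin 2. The base at 2158464 was inside a region with both hairpins and 264 bp outside one with shScramble. The inner start at 2021945 had no region within 1 kb in any list. The other regions in all 3 lists were chr9:1994441-1996170, chr9:2086781-2088500 and chr9:2192191-2194150. chr9:2024801-2027790 was lost with both hairpins, and its nearest hairpin regions were 7090 bp and 5390 bp away. Hairpin 1 alone listed chr9:2082081-2083060, chr9:2083061-2086210 and chr9:2144031-2144890. Of the remaining regions, chr9:2017831-2019410 lacked hairpin 1 only, chr9:2178271-2181020 lacked hairpin 2 only and chr9:2181171-2181920 was listed with hairpin 2 only. At an authors' p of at most 0.05, only the hairpin 1 list had a region in this window.

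ARID1A encodes the AT-rich interaction subunit that most canonical BAF complexes carry, and it is often mutated in cancer. The gene (chromosome 1, 26696015 to 26782104, plus strand) was the other member whose start was listed with both hairpins and not with shScramble. The 250 bases before its start (GRCh38.p14, RefSeq, chr1:26695765-26696014, plus strand, 5′ to 3′) are printed for comparison with SMARCA4 and hold 0 GGAA cores.
ARID1A: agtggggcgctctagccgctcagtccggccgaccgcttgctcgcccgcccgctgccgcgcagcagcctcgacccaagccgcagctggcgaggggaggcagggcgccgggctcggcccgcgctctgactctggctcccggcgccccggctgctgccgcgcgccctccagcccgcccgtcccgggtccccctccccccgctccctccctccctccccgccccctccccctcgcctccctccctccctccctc
The start lies within 1 kb of an annotated start of LOC124900417, an uncharacterised neighbour. The hairpin regions named next lie within 1 kb of that start as well, so they cannot be assigned to ARID1A alone. In the shScramble list the nearest region lay 1856 bp downstream. Hairpin 1 listed a region up to 195 bp before the start, at the 21.6% point, and hairpin 2 a narrow region over it, chr1:26695991-26696180, at the 17.7% point.

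The window as a whole hardly differed in number, with 13, 14 and 13 regions. Merged, 8 of its 10 regions were present in all 3 lists: chr1:26676461-26678070, chr1:26690691-26695960, chr1:26697691-26700280, chr1:26721421-26725920, chr1:26742771-26746110, chr1:26769211-26772890, chr1:26781921-26791690 and chr1:26798931-26802940. The last 2 of these lie at or past the far end of the gene, and some pieces lie at an end of PIGV, a gene of GPI anchor synthesis. The site chr1:26721421-26725920, 25.9 kb into the gene, held the best-ranked distal one, at the 1.11% point with shScramble, 0.321% with hairpin 1 and 0.835% with hairpin 2. Another, chr1:26769211-26772890, stood at rank 8723 with shScramble, 533 with hairpin 1 and 1306 with hairpin 2. Only chr1:26767181-26769090 was added by hairpin 1 alone. Of the BAF genes, ARID1A had the most regions at an authors' p of at most 0.05 in shScramble, 5, against 7 with hairpin 1 and 4 with hairpin 2.

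ARID1B encodes the paralogue that takes the place of ARID1A in canonical BAF. It is the longest of these genes (435 kb; chromosome 6, 156776026 to 157210779, plus strand) and had the most regions, namely 27, 37 and 22 in the shScramble, hairpin 1 and hairpin 2 lists. The hairpins lay on opposite sides of the control, as at 16.9% of all genes, where hairpin 1 had more and hairpin 2 fewer. The bases covered were 53.1 kb, 67.8 kb and 35.7 kb. At an authors' p of at most 0.05 the numbers were 3, 7 and 5, so both hairpins were then above the control.

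At the outermost start of ARID1B, chr6:156774721-156777200 was listed in every group, but only the shScramble region covered the start itself, in the tied block at the end of its list. The hairpin regions began 425 bp (hairpin 1) and 315 bp (hairpin 2) after it, at the 65.4% and 25.7% points. An inner start lies at 156777378, within chr6:156777201-156777560, which was listed with shScramble and hairpin 1 and was absent with hairpin 2 only. Next to it, 290 bp from the nearest shScramble region, chr6:156777841-156778200 was gained with both. The other gained regions were chr6:156832001-156833430 and chr6:157060661-157061340, 4250 bp and 380 bp from a shScramble region.

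Regions of ARID1B lost with both hairpins were chr6:156911741-156913210, chr6:157024181-157025590 and chr6:157227011-157228710. Their ranks in the shScramble list were 72604, 29616 and 73484 of 85775. The second lay 730 bp from a hairpin 1 region and 990 bp from a hairpin 2 region, while the first was 10590 bp and 19920 bp away from one. A further 5 regions were absent with hairpin 2 only: chr6:156826601-156827750, chr6:156876501-156880670, chr6:156923731-156925190, chr6:156993081-156996670 and chr6:157044571-157046930. Hairpin 1 alone listed chr6:156827751-156829280, chr6:156886191-156887320, chr6:156955711-156956990, chr6:157027261-157031490, chr6:157148441-157149220, chr6:157217371-157218900 and chr6:157218901-157220290, and hairpin 2 alone chr6:157193461-157196720.

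The best-ranked distal region of ARID1B, chr6:156978931-156983170, lay 204 kb into the gene and was listed in every group, at the 2.55%, 1.16% and 5.32% points. The first 5 of the others in all 3 lists were chr6:156779711-156783750, chr6:156789951-156794550, chr6:156807741-156809680, chr6:156823931-156826380 and chr6:156847091-156851170. Further along lay chr6:156932251-156934850, chr6:156952511-156955710, chr6:157019761-157023450, chr6:157032401-157036490 and chr6:157058121-157060620. The last ones, towards the far end of the gene, were chr6:157069531-157071680, chr6:157106791-157109240, chr6:157143501-157146650 and chr6:157181801-157187950.

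ARID2 encodes the AT-rich interaction subunit of PBAF. The gene spans chromosome 12, 45729706 to 45908037, and its strand is not in the promoter table. Its window had 7 regions in the shScramble list, 8 for hairpin 1 and 2 for hairpin 2, the lowest number with hairpin 2 among the 10 genes. Most of that difference lay in 1 stretch at the lower gene end, chr12:45723711-45730870, which also holds the start of LINC00938. ShScramble listed it as 4 regions, hairpin 1 as 5 and hairpin 2 as a single region of 5750 bp. Counted as merged regions, the window had 4, 4 and 2.

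The rank of that stretch also differed. Its best piece within 1 kb of the gene end stood at rank 341 of 85775 with shScramble and 2260 of 122869 with hairpin 1, near the top of both lists. With hairpin 2 the single wide region stood in the tied block at the end of the list. The authors' value of that region, without a stated unit, was 3547. It was above the 3422 of the region at rank 113 of the same list, so a place in the tied block need not go with a low authors' value. Adjoining regions can carry the same value: chr12:50109191-50111430, in the tied block, also carried 3422. The value is therefore not read as the strength of a single site. chr12:45910671-45914980, past the upper gene end, was the other region in all 3 lists. chr12:45762041-45763430 inside the gene and chr12:45914981-45916540 were lost with both, the latter 710 bp from a hairpin 1 region and 1160 bp from a hairpin 2 region. The former was the best-ranked distal shScramble region, at rank 37721. Hairpin 1 alone listed chr12:45744421-45746830 and chr12:45831681-45834210.

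SMARCB1 encodes a core subunit found in canonical BAF and PBAF, whose loss defines rhabdoid tumours. The gene (chromosome 22, 23786966 to 23838009, plus strand) had 17 regions in both the shScramble and the hairpin 1 list and 11 in that of hairpin 2. Its start was covered in every list. The 250 bases before it (GRCh38.p14, RefSeq, chr22:23786716-23786965, plus strand, 5′ to 3′) are printed as a start that all 3 lists hold, with 3 GGAA cores in capitals.
SMARCB1: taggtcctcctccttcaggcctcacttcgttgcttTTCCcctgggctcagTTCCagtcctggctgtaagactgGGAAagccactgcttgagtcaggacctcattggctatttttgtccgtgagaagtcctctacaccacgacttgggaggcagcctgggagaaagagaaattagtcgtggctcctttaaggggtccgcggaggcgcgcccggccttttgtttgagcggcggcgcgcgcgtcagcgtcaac
The region over the start, chr22:23784711-23787310, was among the tied last regions with shScramble and hairpin 2 and at rank 88321 of 122869 with hairpin 1. The one just downstream, chr22:23787381-23788920, ranked higher, at the 12.6% point with shScramble, 16.7% with hairpin 1 and 11.1% with hairpin 2.

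Inside SMARCB1, hairpin 2 listed nothing beyond the start. chr22:23790951-23793160, chr22:23795831-23797080 and chr22:23827721-23837700 were listed with shScramble and hairpin 1 and not with hairpin 2, and chr22:23823011-23826890 with hairpin 1 only. With no flank the gene held 6, 6 and 2 regions. DERL3, a gene of protein quality control, ends within 1 kb of the last of the absent places. The bases covered in the window were 20.3 kb, 36.4 kb and 13.6 kb. Upstream, chr22:23759961-23769900, chr22:23770161-23772060, chr22:23773041-23777150 and chr22:23777291-23779240 were in all 3 lists. Pieces of the first 3 lie at ends of CHCHD10, a mitochondrial protein gene, and MMP11, a matrix metalloproteinase gene. Downstream, chr22:23846811-23849680, chr22:23849701-23852630 and chr22:23856311-23861240 were in all 3 lists. The last lies at SLC2A11, a sugar transporter gene, and its shScramble pieces lay beyond the window. The remaining regions were chr22:23779241-23781300, chr22:23782371-23784190 and chr22:23842501-23843470 with hairpin 1 only and chr22:23781401-23782330, absent with hairpin 1 only. The best-ranked distal shScramble region lay in the second of the upstream places, at rank 7887, and the wider hairpin regions there (ranks 13554 and 11559) reach to within 1 kb of an end of MMP11.

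SMARCC1 and SMARCC2 encode the related scaffold subunits that pair to form the base on which the complex is assembled. SMARCC1 (chromosome 3, 47585269 to 47781893) had 7, 12 and 9 regions. Its upper gene end was covered in every list by chr3:47780191-47783230, at best at ranks 10335, 14044 and 7628, and its lower end in none. Near it chr3:47788171-47789920 and chr3:47790651-47792400 were in all 3 lists. The first of these was the best-ranked distal region, at ranks 7290, 13902 and 9930. chr3:47659481-47665380 inside the gene and chr3:47801861-47804740 at the start of DHX30, a helicase gene, were also in all 3, although the latter reached into the window only with hairpin 2.

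chr3:47703421-47704840, in the gene, was gained with both hairpins and lay 36320 bp from any shScramble region, the widest such gap among the 6 gained regions of the BAF genes. It stood at rank 24712 with hairpin 1 and 75460 with hairpin 2. chr3:47799071-47800440 was lost with both. chr3:47598861-47600920 and chr3:47665731-47667290 were absent with hairpin 2 only, chr3:47565281-47567110 and chr3:47597741-47598860 listed with hairpin 1 only and chr3:47611851-47613180 with hairpin 2 only.

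SMARCC2 (chromosome 12, 56162359 to 56189483) had 9, 12 and 10 regions, most of them outside the gene. With no flank the numbers were 1, 1 and 2. Its upper end lay in chr12:56187601-56194650, which was listed in every group, in 2, 4 and 3 pieces. Within 1 kb of that end the best piece stood among the tied last regions with shScramble, at the 88.1% point with hairpin 1 and at the 4.40% point with hairpin 2. Past the lower end, chr12:56158131-56161430 at the start of MYL6, a myosin light chain gene, ranked 795, 940 and 581. The best-ranked distal region was chr12:56195741-56199060, at the 3.32%, 7.25% and 2.96% points. chr12:56151261-56153390 and chr12:56153871-56156540, the first of them at MYL6B, another myosin light chain gene, were also in all 3 lists. chr12:56156811-56158130 was absent with hairpin 2 only and chr12:56206101-56207690 with hairpin 1 only. Hairpin 1 alone listed chr12:56202161-56203350 and chr12:56203781-56205580, and hairpin 2 alone chr12:56163181-56166110.

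SMARCD1 encodes a subunit that links the complex to transcription factors. The gene (chromosome 12, 50085342 to 50100707, plus strand) had 10, 9 and 11 regions. It was the BAF gene with fewer regions with hairpin 1 and more with hairpin 2, a combination found at 1.41% of all genes; the differences were of 1 region each. Its start lay in chr12:50082891-50089780, which each list held as 3 regions. Hairpin 2 had the best-ranked piece there, at rank 1556 of 83241, against 12536 with shScramble and 65889 with hairpin 1 within 1 kb of the start. The bases covered were 17.5 kb with shScramble, 22.6 kb with hairpin 1 and 22.9 kb with hairpin 2, so hairpin 2 covered more bases than the control, as it also did at SMARCC1 (9.93 kb against 8.87 kb) and SMARCC2 (17.6 kb against 16.7 kb). At the other 7 genes it covered fewer.

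The highest-ranked place of all BAF windows in each hairpin list was chr12:50102721-50114190, past the far end of SMARCD1, at ends of COX14, a respiratory chain assembly factor gene, and GPD1, which encodes glycerol-3-phosphate dehydrogenase. It stood at rank 101 with hairpin 1, 113 with hairpin 2 and 727 in the control list, where the ARID2 stretch ranked higher. Other sites in all 3 lists were chr12:50069471-50073380 and chr12:50073751-50076760 before the gene at ASIC1, an ion channel gene, and chr12:50101001-50102720. The second of these held the best-ranked distal shScramble region (3.94% point). The hairpin regions there, at the 2.14% and 4.50% points, are wider and reach to within 1 kb of a start of ASIC1. chr12:50089781-50090800 was lost with both but lay only 110 bp from a hairpin 1 region and 740 bp from a hairpin 2 region. chr12:50064461-50066370 was listed with hairpin 2 only.

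SMARCE1 encodes a subunit with an HMG box, a DNA-binding fold. The gene (chromosome 17, 40624962 to 40647818, minus strand) had 6 regions in the control list and 5 in each hairpin list. Merged, all fell into 2 places that every list held: chr17:40645661-40649220 over the start and chr17:40612871-40622080 past the far end. The 250 bases before the start (GRCh38.p14, RefSeq, chr17:40647819-40648068, minus strand, 5′ to 3′) are printed as those of the gene whose places were all in every list, with 4 GGAA cores in capitals.
SMARCE1: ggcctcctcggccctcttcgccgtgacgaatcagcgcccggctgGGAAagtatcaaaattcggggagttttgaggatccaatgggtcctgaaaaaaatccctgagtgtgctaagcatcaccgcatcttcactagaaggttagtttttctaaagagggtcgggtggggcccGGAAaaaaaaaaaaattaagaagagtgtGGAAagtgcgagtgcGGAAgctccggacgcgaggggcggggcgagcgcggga
ShScramble held the start as 4 regions that covered 1861 of 2001 bases around it, hairpin 1 as 1 region (833 bases) that ended 168 bp from the start, and hairpin 2 as 2 regions (1991 bases). None of its regions had an authors' p of at most 0.05 in any list. The best-ranked distal region stood at the 19.3%, 32.7% and 39.1% points.

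**Figure D3:**
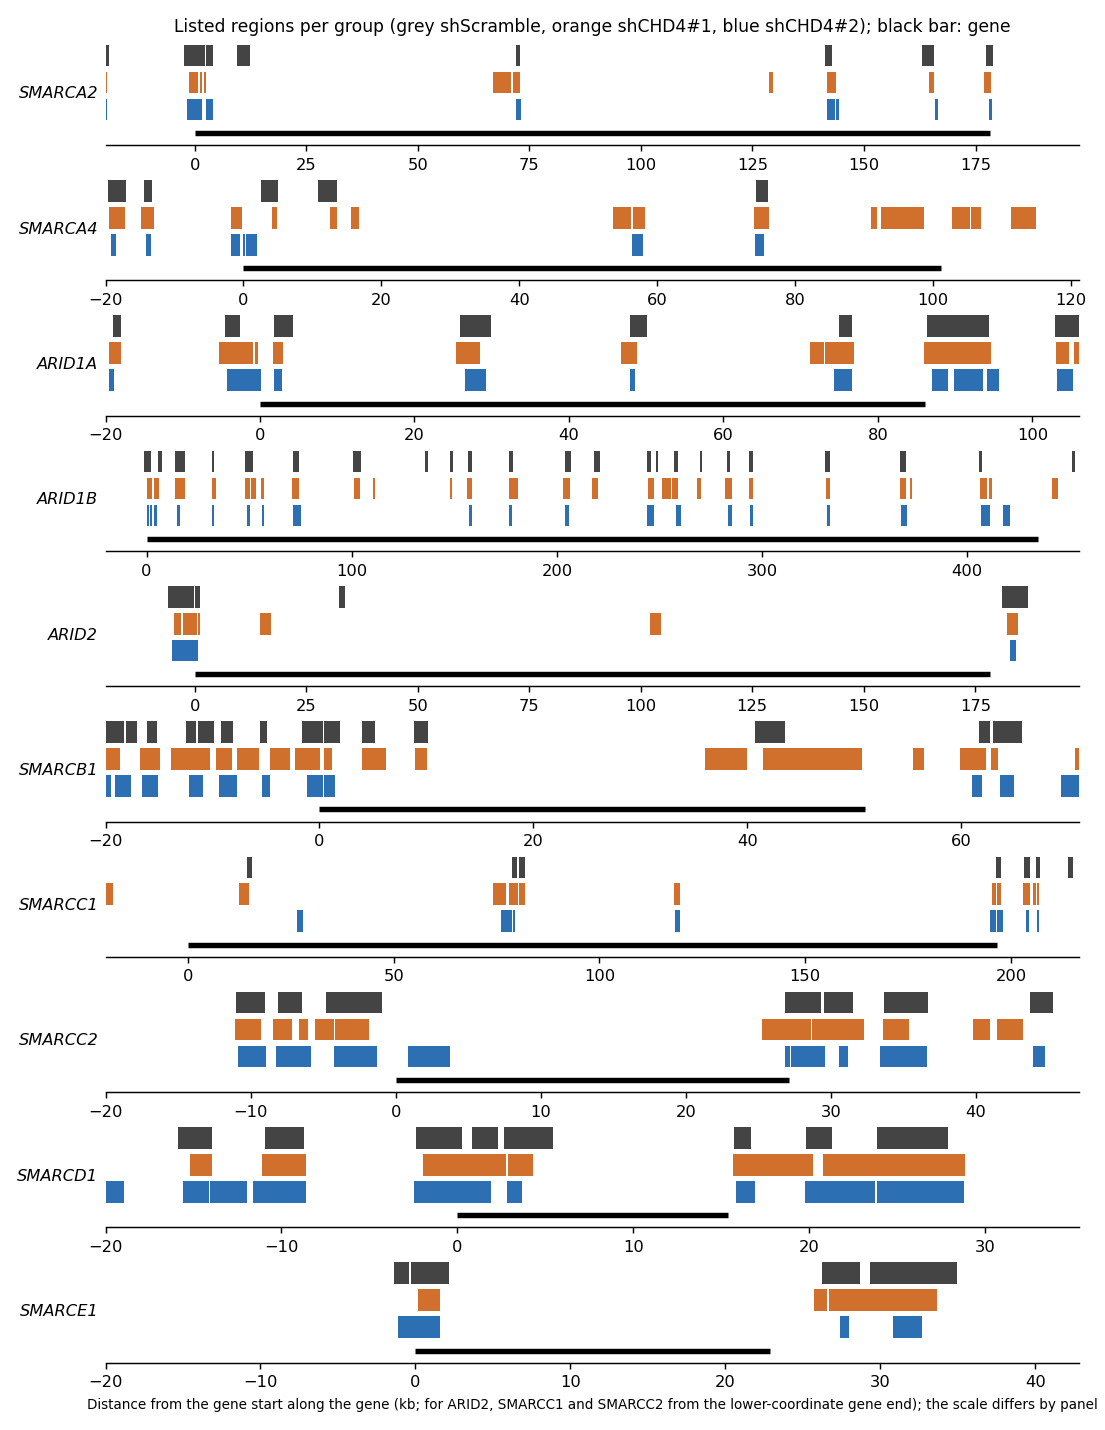
Every listed region in the 10 windows, drawn to scale by distance from the gene start along the gene (x axis, kb; from the lower-coordinate gene end for ARID2, SMARCC1 and SMARCC2; scales differ by panel), with shScramble in grey, shCHD4#1 in orange and shCHD4#2 in blue, and the gene as a black bar. Bars past the far end of SMARCA4 are orange only, and the blue row has no bar inside SMARCB1 beyond its start.

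At gene starts, 8 of the 10 genes had a region within 1 kb with shScramble and all 10 had one with each hairpin. The 8 had one in every list, as did 54.7% of all genes, and none had one in shScramble alone (1.26%). Where the promoter table gives no strand (ARID2, SMARCC1 and SMARCC2), either gene end was accepted. Over all protein-coding genes, 60.0% had such a region with shScramble, 68.5% with hairpin 1 and 65.0% with hairpin 2. The 2 BAF genes that went from uncovered to covered with both hairpins, SMARCA4 and ARID1A, are to be read against 7.24% of all genes. At ARID1A the place just upstream of the start was in every list and differed in how near the start it reached. The hairpin regions nearest that start also lie within 1 kb of a start of LOC124900417. Within 2 kb in place of 1 kb, 9 starts were covered with shScramble, since its region 1856 bp from the ARID1A start then counts, and only SMARCA4 stays uncovered there. Among genes with 6 to 27 shScramble regions the shares were 76.0%, 83.3% and 80.1% in the 3 lists, 69.6% in all of them, 7.26% with both hairpins and not shScramble, and 1.32% in shScramble alone. With an authors' p of at most 0.05 the numbers of covered starts were 3, 3 and 4. With the best 80000 regions of each list they were 6, 6 and 9. These cuts were not made for other genes.

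Among the 7 genes with a known start, the best region there stood at a median of the 58.9% point of the list with shScramble (5 genes), 53.6% with hairpin 1 and 20.1% with hairpin 2 (7 genes each). Over the protein-coding genes with a known start (15812) and a region there, these medians were 23.6%, 19.7% and 16.1%. In shScramble 2 of the 5 BAF genes had their best start region in the last 10% of the list (SMARCA2 and ARID1B). The background was 9.91% of the 9494 genes with a known start and a region there in that list. With hairpin 1 there were 0 of 7 (background 7.59%) and with hairpin 2 there was 1 of 7, SMARCA2 (6.44%). A place in the tied block at the end of a list need not mean a low authors' value. In the hairpin 2 list the SMARCA2 start region in that block carried a value of 1314, and the SMARCE1 one at the 20.1% point carried 447. Each of these values was also carried by a neighbouring region of the same list, so neither measures the strength of a single site.

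**Figure D4:**
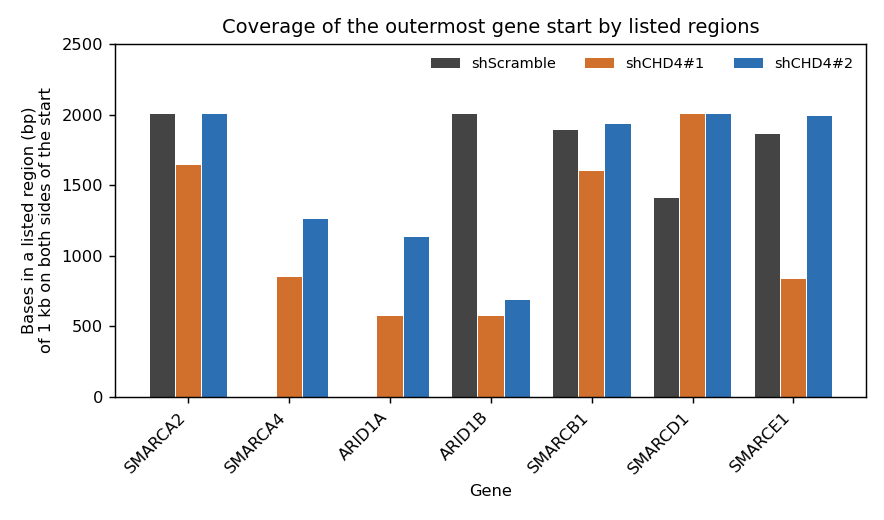
Bases inside a listed region (y axis, bp, of 2001) within 1 kb on both sides of the outermost start of the 7 BAF genes with a strand in the promoter table (x axis), 1 bar per group list. SMARCA4 and ARID1A have no shScramble bar, and ARID1B stands at 2001, 576 and 686 in the order of the lists.

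The promoter windows of these 7 genes, 300 bases each, were searched on both strands for 11 short motifs, and the matches describe letters only. GGAA was found in 6 of 7 and in 95.5% of all 35116 promoters of the table. ARID1A was the one without it, and SMARCD1 had the most, 8. The tandem GGAAGGAA and the longer ETS form CCGGAAGT were in 0 of 7, against 3.67% and 4.14% of all promoters. GGGCGG, the GC box, was in 6 of 7 (ARID1B was the one without) and in 44.95% of all, and CCAAT in 3 of 7 (ARID1B, SMARCB1 and SMARCE1) and in 34.6% of all. AAGATGGCG was in SMARCD1 only and in 1.75% of all. CACGTG (7.26% of all), TGACGTCA (1.85%), GCGCATGC (3.05%), CTCGCGAG (1.02%) and TATAAA (11.5%) were in none of the 7. The G and C content ran from 37.7% (ARID1B) to 81.3% (SMARCA4), with a median of 66.7% against 58.7% over all promoters.

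Merging regions that share a base gave 131 places in the 10 windows, of which 60 were in all 3 lists (45.8%, Wilson 95% interval 37.5 to 54.3), against 33.2% of the 130785 places on all chromosomes. Gained with both hairpins were 6 places (4.58%, 2.12 to 9.63), against 10.0% on all chromosomes. Lost with both were 8 (6.11%, 3.13 to 11.6), against 10.5%. The gained ones were at SMARCA4 (2), ARID1B (3) and SMARCC1 (1), and 5 of the 6 lay inside a gene and away from its outermost start. Of these 5, chr6:156777841-156778200 lay within 1 kb of the annotated inner start of ARID1B. The lost ones were at ARID1B (3), ARID2 (2), SMARCA2, SMARCC1 and SMARCD1 (1 each), and none of them was at a gene start. Hairpin 1 alone accounted for 30 places (22.9%, against 29.0%) and hairpin 2 alone for 9 (6.87%, against 5.44%). A further 15 were absent with hairpin 2 only (11.5%, against 9.11%) and 3 with hairpin 1 only (2.29%, against 2.70%). Of the 15, 13 lay inside a gene. The share inside genes was not computed for all chromosomes, so the 13, and the 5 gained places above, have no background. For the 4 patterns of a single hairpin, listed or absent alone, the share on all chromosomes lies inside the Wilson interval of the BAF share. The same holds for places lost with both. Places on all chromosomes include those away from genes, and no such shares were made for the windows of other genes. ARID1B alone held 36 of the 131 places.

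**Figure D5:**
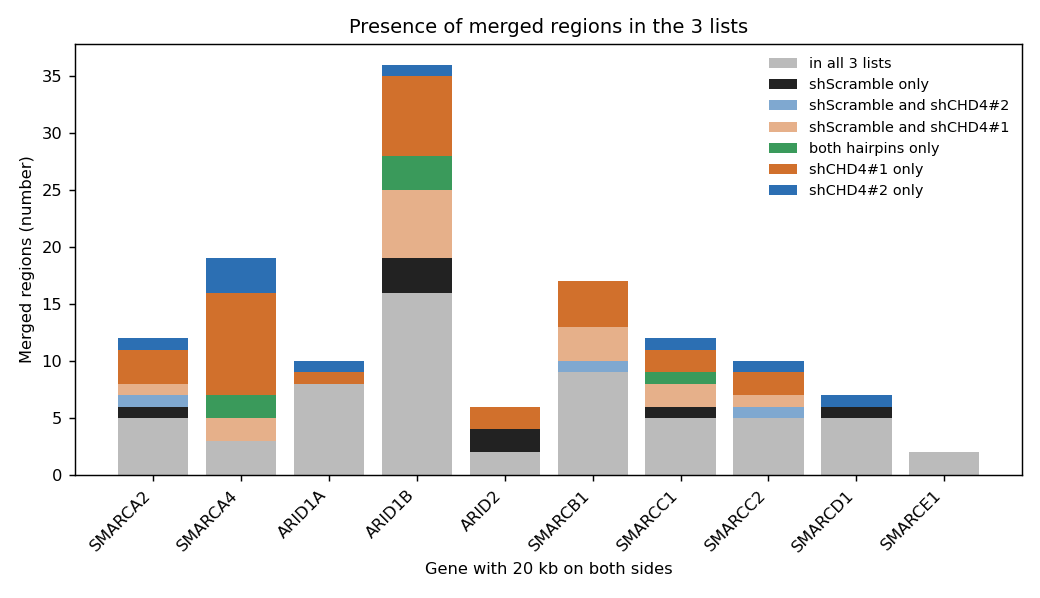
Merged regions (y axis, number) in each BAF gene with 20 kb on both sides (x axis), stacked by the lists that hold them; a merged region may reach past the window. Grey, in all 3 lists, makes up 8 of 10 at ARID1A and 3 of 19 at SMARCA4, where orange, shCHD4#1 only, makes up 9.

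Places in all 3 lists differed in how they were cut. The 60 places held 85 shScramble, 95 hairpin 1 and 87 hairpin 2 regions. At 28 of them each list had exactly 1 region, and their median widths were 1970, 1925 and 1310 bp in the order of the lists. The hairpin 2 region was narrower than the control region at 19 of the 28 (67.9%), near the 74.5% found on all chromosomes. At the lower end of ARID2, likewise, 4 shScramble regions and 1 hairpin 2 region belonged to a single place listed in every group.

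The other SWI/SNF genes listed beside these 10 numbered 21. With hairpin 1, 13 of them had more regions and 2 had fewer, against 61.1% and 16.8% of all protein-coding genes. With hairpin 2, 9 had more and 10 fewer, against 34.9% and 37.6%. The median log2 ratios of the 21 genes were 0.17 and 0. The largest mean ratios over both hairpins were at BCL11B, a zinc finger factor that can join BAF in neurons and T cells (5, 15 and 8 regions with shScramble, hairpin 1 and hairpin 2), ACTL6B, the neuronal actin-related subunit (7, 11 and 11), and BCL7A (6, 8 and 10). The smallest were at BICRAL, a subunit of the non-canonical form (15, 15 and 10), SMARCD2 (8, 6 and 7) and BCL7C (12, 12 and 8). A region at the start was listed for 17 of the 21 with shScramble and for 19 with each hairpin, against 60.0%, 68.5% and 65.0% of all genes in the 3 lists. BCL7A had none in any list. Like SMARCA4 and ARID1A, 3 of the 21 had one with both hairpins and not with shScramble, against 7.24% of all genes. They were SMARCD3, ACTL6B and BRD9, named here after their values were seen. BCL11A had one with shScramble only (1.26% of all genes).

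Of 15 NuRD subunit genes, CHD4 included, 10 had more regions with hairpin 1 and 3 fewer, against 61.1% and 16.8% of all genes. With hairpin 2, 7 had more and 4 fewer, against 34.9% and 37.6%. The median log2 ratios of the NuRD genes were 0.21 and 0, beside 0.27 and 0.06 for the BAF genes. Starts were covered for 11, 13 and 12 of the 15, and for 2 of them with both hairpins and not with shScramble.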

How the data were processed

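ATAC-seq was done in 9 samples, 3 biological replicates in each of 3 groups, and 1 region list per group was used. Per the submitters' processing notes, the tools included FastQC 0.11.7 and deepTools 3.2.1, Trimmomatic 0.36, SAMtools 1.9 and BWA, and the builds were GRCh38 and dm6. The deposited lists carry the name of ChIP-R, a tool that combines replicate peaks. Each was filed under replicate 1 and was treated as its group's combined list, which is an inference from that name. Not given in the sources used here: peak caller, settings, insertion shift and use of the Drosophila reads. The authors' deposited score and value per region have no stated unit and were not compared between lists. The authors' deposited p-value and q-value per region were used only to rank and filter regions within a list. Each ATAC library's depth is unknown, so no region carries a depth-based interval.

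Starts were raised by 1 to browser coordinates. Gene positions, strands and promoter sequences came from RefSeq tables for GRCh38.p14, and 7 of the 10 genes had a promoter entry (not ARID2, SMARCC1 and SMARCC2). A region counted with at least 1 bp in the gene and 20 kb on both sides. Regions of the lists that shared 1 bp or more were merged, and regions that only touch were not. Log2 ratios have 1 added to each number. With 1 list per group there was no test. Intervals are exact binomial or Wilson at 95% and cover counting error only. The counting was tested on simulated regions and recovered 7000 of 7000 presence patterns, 6000 of 6000 region numbers and 6000 of 6000 covered lengths. Python 3.11.15, numpy 2.4.6, pandas 2.3.3, SciPy 1.17.1 and matplotlib 3.10.9 were used.

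The genes and lists were chosen with earlier results of these data known. Named beyond the 10 genes were CHD4, the 3 other SWI/SNF genes with the largest and the 3 with the smallest mean log2 ratio, those with no start region, and genes with an end at a region of a window. The genes closest to the summed pattern are not reported here. Alternatives changed the regions used, the flank, the overlap, the added number, the distance from a start and the measure.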

Additional observations from a re-analysis of the deposited data

Results flagged for a closer look

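At 3 of the 10 BAF genes the hairpins lay on opposite sides of the shScramble list. More regions with hairpin 1 and fewer with hairpin 2 were found at 16.9% of all genes. Among genes with 6 to 27 shScramble regions the share was 25.6%. The converse was found at 1.41% and 1.86%. ARID1B had 10 more regions with hairpin 1, and the difference (hairpin minus shScramble) was -5 with hairpin 2. ARID2 had 1 more with hairpin 1 and a difference of -5 with hairpin 2, where 4 shScramble regions at the lower gene end stood as 1 wide region. SMARCD1 had a difference of -1 with hairpin 1 and of 1 with hairpin 2. With 1 list per group none of these differences was tested.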

How the results depend on the processing

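No paired analysis was possible because each group had 1 list, and for the same reason no replicate could be left out. Of 110 values under alternative settings, 76 stayed within the range set for them, 25 moved and 9 changed direction; the cause was not tested. With the best 20000 regions of each list the summed ratio for hairpin 1 was 0.865, the median log2 ratios were -0.21 and -0.076, hairpin 1 gave more regions at 1 gene and fewer at 6, hairpin 2 gave more at 2, 2 places were gained with both hairpins, and 5, 3 and 6 starts were covered. With the best 80000, ties decide which regions of the shScramble and hairpin 2 lists remain. There the hairpin 1 ratio was 0.890 and its median -0.32, with more regions at 3 genes and fewer at 7. Places lost with both were 18, and 6, 6 and 9 starts were covered in the order of the lists. With an authors' p of at most 0.05 the hairpin 2 ratio was 1.21, hairpin 1 gave fewer regions at 0 genes and hairpin 2 at 2, 2 places were gained and 0 lost, and 3, 3 and 4 starts were covered. The hairpin 2 median was -0.11 with a flank of 5 kb, -0.085 with merged regions and -0.11 without regions near another gene. Hairpin 1 gave fewer regions at 0 genes with a flank of 50 kb, at 1 with merged regions and at 4 without regions near another gene, and hairpin 2 gave more at 2 with merged regions. Places lost with both were 5 with no flank, 5 with a flank of 5 kb and 14 where sharing needed 50% of the narrower region. The use of merged regions and of regions away from other genes was chosen after the data were seen.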
